A study of Mus musculus with 12 samples.

Results

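The Spi1 locus was described here as all open chromatin regions of the ATAC-seq table that lie in chr2:91060000-91140000 (GRCm38). These were 21 of 121336 regions. Of them, 5 lay in the window of the deleted enhancer and 16 lay outside it, and the 16 are the subject of what follows: 3 upstream neighbours, 4 regions between the deleted window and the promoter, the promoter region, 5 regions in the gene body and 3 downstream neighbours. Every region is named by the distance of its centre from the annotated Spi1 start codon in kb, with negative values upstream. The choice used position only and no measured value.

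ATAC-seq uses a transposase that cuts accessible DNA, so the reads in a region measure how open its chromatin is. Cells were sorted from the bone marrow of young adult mice on a C57BL/6 background. LSKs (Lin- Sca-1+ c-Kit+) hold the stem cells and earliest progenitors, and GMPs (Lin- Sca-1- c-Kit+ Cd16/32+) are granulocyte-monocyte progenitors. WT mice were compared with littermates homozygous for a germline deletion of the upstream regulatory element of Spi1 (UREd/d, here URE), which every cell of the animal carries. The 4 groups (WT and URE, each in LSKs and GMPs, written as WT-LSK and so on) held 3 libraries each. By the study's methods the libraries of a group came from separate mice. Whether LSKs and GMPs were sorted from the same mice is not given in the sources used here. In sorted bulk cells, fewer cells with an open region and less opening per cell cannot be told apart.

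Spi1 encodes PU.1, an ETS family transcription factor that is needed for monocytes, macrophages and B cells and that acts by dose: high levels favour macrophages and low levels favour neutrophils. Its promoter works together with distal enhancers upstream of the gene, of which the upstream regulatory element is the best known, and PU.1 binds both the enhancer and its own promoter. RUNX1 and C/EBP factors are partners of PU.1 at many of its sites, and GATA factors act as its opponents in erythroid and mast cell lineages.

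In both cell types the regions outside the deleted window and nearest to it (-18.3, -10.4 and -9.3 kb) lost accessibility. The 3' part of the gene body gained it (see the map of the locus in 4 groups). Nearness is counted here from the window and not from the deletion, whose exact borders are not given. Inside the window, the -12.7 kb region, at least part of which was present in URE mice, was not lower in either cell type. In LSKs, 7 of 16 regions were lower in URE than in WT and 3 were higher, where 23.9% and 13.6% of all regions were. In GMPs, 5 were lower and 5 higher, against 24.1% and 15.6% of all regions. The 5 lower regions of GMPs were also lower in LSKs (-18.3, -10.4, -9.3, +35.3 and +41.8 kb), and 3 regions were higher in both (+13.1, +16.6 and +18.3 kb). The promoter and the +1.4 kb region were called lower in LSKs, and the -8.9 and -7.6 kb regions were called higher in GMPs. A region was called when edgeR's quasi-likelihood test over all 121336 regions gave a Benjamini-Hochberg adjusted p under 0.05 and a log2 fold change over 1 in either direction. The median log2 fold change of the 16 regions was 0.06 in LSKs and 0.23 in GMPs, beside 0.137 and 0.055 over all regions.

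**Figure D1:**
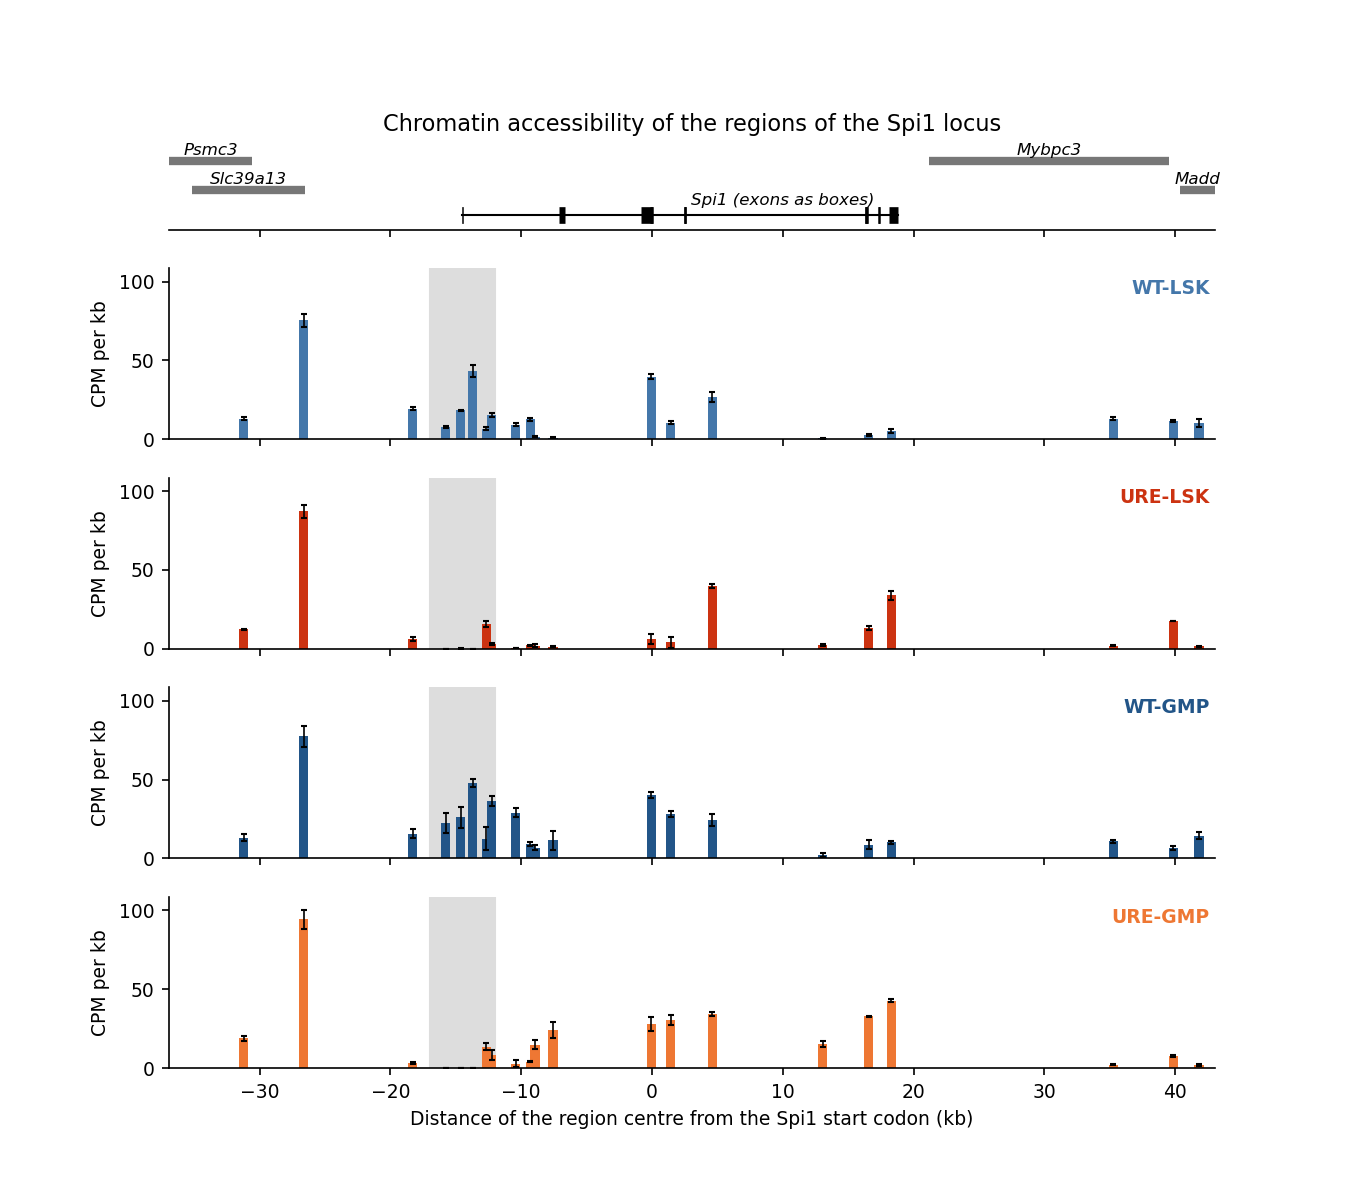
Mean CPM per kb of region width (bars of fixed drawn width, error bars SD of 3 libraries) of all 21 regions against their distance from the Spi1 start codon in kb, with 1 panel per group, the gene models above and the 12 to 17 kb window of the deleted element in grey. The promoter at 0 falls to 6.35 CPM per kb in URE-LSK, while the region at the last exon (+18.3 kb) rises to 33.8 in URE-LSK and 42.7 in URE-GMP.

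The sequences below are those of the regions the results turn on, from the GRCm38 plus strand, 5' to 3', cut to 300 bases at most. Capitals mark matches, on either strand, to 1 of the searched motifs, which are GAGGAAGT for PU.1 and its core GAGGAA (which lies within it), AACCACA for RUNX, TTGCNNAA for CEBP, AGATAA for GATA, ATTTGCAT for the octamer and GGGCGG for the GC box. Among all regions 10.5% held the PU.1 motif, 46.9% its core, 17.3% RUNX, 20.5% CEBP, 15.7% GATA, 1.85% the octamer and 19.8% the GC box. A match describes letters and not binding.
Region at -10.4 kb, chr2:91086383-91086682, which had the lowest log2 fold change in LSKs outside the deleted window: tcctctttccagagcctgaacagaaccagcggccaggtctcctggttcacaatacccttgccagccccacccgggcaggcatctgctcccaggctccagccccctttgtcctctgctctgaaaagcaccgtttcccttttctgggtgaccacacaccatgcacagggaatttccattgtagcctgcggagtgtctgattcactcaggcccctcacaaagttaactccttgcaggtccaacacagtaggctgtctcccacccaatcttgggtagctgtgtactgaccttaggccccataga
Region at -9.3 kb, chr2:91087494-91087793, which was lower in both cell types: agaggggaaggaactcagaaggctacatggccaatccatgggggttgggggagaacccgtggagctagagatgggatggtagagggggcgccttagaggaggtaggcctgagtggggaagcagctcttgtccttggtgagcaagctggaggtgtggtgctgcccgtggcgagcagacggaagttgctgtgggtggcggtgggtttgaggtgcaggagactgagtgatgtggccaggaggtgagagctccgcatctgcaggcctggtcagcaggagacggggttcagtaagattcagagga
Region at -8.9 kb, chr2:91087901-91088104, its neighbour, which was higher in GMPs: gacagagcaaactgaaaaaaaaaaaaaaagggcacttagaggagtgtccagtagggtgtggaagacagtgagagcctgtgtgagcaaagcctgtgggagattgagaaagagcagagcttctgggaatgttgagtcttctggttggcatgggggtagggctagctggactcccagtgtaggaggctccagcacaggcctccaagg
Region at -7.6 kb, chr2:91089200-91089399, which opened at the GMP step: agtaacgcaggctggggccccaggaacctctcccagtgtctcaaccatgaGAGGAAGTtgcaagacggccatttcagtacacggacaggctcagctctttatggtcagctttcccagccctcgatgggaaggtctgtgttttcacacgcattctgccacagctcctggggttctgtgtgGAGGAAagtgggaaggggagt
Region at -7.6 kb, chr2:91089627-91089732, its downstream end: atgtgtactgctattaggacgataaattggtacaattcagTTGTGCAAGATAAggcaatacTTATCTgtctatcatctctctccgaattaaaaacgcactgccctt
Promoter, chr2:91096576-91096605, around a PU.1 core: cccagccccagtTTCCTCtgggcaggggcc
Promoter, chr2:91096681-91096710, around a CEBP match and a GC box: agatTTATGCAAacgggctgGGGCGGtgat
Region at +1.4 kb, chr2:91098237-91098520, in the first intron, which was lower in LSKs: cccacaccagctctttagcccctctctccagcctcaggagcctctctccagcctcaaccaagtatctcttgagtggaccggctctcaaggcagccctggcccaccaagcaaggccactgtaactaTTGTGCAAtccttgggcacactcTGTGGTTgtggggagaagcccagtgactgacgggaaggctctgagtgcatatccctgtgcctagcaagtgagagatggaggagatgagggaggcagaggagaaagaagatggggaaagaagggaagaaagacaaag
Region at +13.1 kb, chr2:91109861-91110160, in an intron, which was higher in both cell types: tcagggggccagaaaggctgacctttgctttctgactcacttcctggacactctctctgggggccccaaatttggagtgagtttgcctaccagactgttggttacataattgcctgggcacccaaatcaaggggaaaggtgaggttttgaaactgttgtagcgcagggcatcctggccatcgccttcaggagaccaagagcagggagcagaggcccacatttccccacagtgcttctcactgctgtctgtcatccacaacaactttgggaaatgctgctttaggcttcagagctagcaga
Region at +39.9 kb, chr2:91136635-91136895, between Mybpc3 and Madd, with the PU.1 motif on both strands but no call between genotypes: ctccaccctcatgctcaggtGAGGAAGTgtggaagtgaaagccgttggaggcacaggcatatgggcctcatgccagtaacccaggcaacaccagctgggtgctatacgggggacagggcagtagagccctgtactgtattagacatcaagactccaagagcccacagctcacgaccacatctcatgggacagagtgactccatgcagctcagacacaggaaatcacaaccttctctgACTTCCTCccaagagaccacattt
None of the searched motifs lay in the -10.4, -9.3, -8.9 or +13.1 kb regions. The -7.6 kb region held the PU.1 motif GAGGAAGT, a further PU.1 core, and at its end a CEBP match that shares 1 base with a GATA match, followed by a GATA match on the other strand. Among regions of like width (80 to 125% of its own), 12.5% held the PU.1 motif, 28.0% a CEBP match and 23.4% a GATA match. The +1.4 kb region held a CEBP and a RUNX match, each on the minus strand, which 17.1% and 14.6% of regions of like width did.

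The 12 libraries held between 23072701 and 62204826 counts, so that 3 counts, taken as the floor, stood for 0.052 to 0.126 CPM. Log2 CPM correlated at 0.933 to 0.976 within groups and at 0.442 to 0.811 between them. The promoter regions of GMP marker genes (Elane, Mpo, Ctsg and Prtn3) summed to 32.2 to 36.1 CPM in WT-LSK and 239.3 to 327.0 in WT-GMP, and those of LSK markers (Hlf, Mecom, Meis1 and Procr) to 194.5 to 204.3 and 150.6 to 170.8. Some list sums differed with genotype: GMP markers summed to 460.0 to 514.5 CPM in URE-GMP, mature neutrophil markers (Ltf, Camp and S100a8) to 47.8 to 56.9 in URE-GMP against 18.7 to 32.0 in WT-GMP, and mast cell and basophil markers (Cpa3 and Mcpt8) to 23.8 to 30.6 in URE-LSK against 7.38 to 11.4 in WT-LSK. Of the GMP and neutrophil lists, only Ctsg and Camp were called in GMPs (log2 fold changes 1.12 and 1.78). Mpo alone held 340.3 CPM in URE-GMP. Elane (0.78), Mpo (0.80) and S100a8 (0.55) were higher but not called, and Prtn3 (-0.14) and Ltf (-0.13) were slightly lower. In LSKs the GMP list stood at 31.8 to 66.7 in URE. Of it, Ctsg was called higher there (log2 fold change 1.93), and Elane (-0.20), Mpo (0.57) and Prtn3 (-0.49) were not called. The neutrophil list in LSKs stood at 6.16 to 6.6 in URE against 9.63 to 12.7 in WT. Camp was called higher (log2 fold change 1.53) and S100a8 lower (-1.47). Cpa3 (1.15) and Mcpt8 (2.13) were both called higher in LSKs. In GMPs the mast cell and basophil list stood at 24.8 to 34.5 in URE against 9.9 to 13.1 in WT. There Mcpt8 was called higher (log2 fold change 1.56) and Cpa3 was not called (0.66). The T cell marker Lck stood at 18.1 to 22.4 CPM over all libraries, and megakaryocyte markers (Pf4, Itga2b and Gp1ba) at 66.3 to 81.5 in WT-LSK, 84.3 to 98.3 in URE-LSK, 46.1 to 64.4 in WT-GMP and 42.3 to 50.7 in URE-GMP, where Pf4 was called lower (log2 fold change -1.32). The LSK list stood at 205.7 to 233.5 in LSKs and 160.6 to 169.6 in GMPs of URE mice, with no member called between genotypes. Ly6a, Fcgr3, Cd3e, Cd3g and Ms4a2 had no region within 500 bp of a start site. The part of a changed cell mixture in the results below was not tested.

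As a check of the genotype, the deleted window summed to 55.6 ± 3.60 CPM in LSKs of WT mice and 4.59 ± 0.214 in those of URE mice (SD, n = 3). GMPs had 79.0 ± 7.84 and 5.62 ± 1.5. Of its 5 regions, those at -15.8 and -14.6 kb had at most 3 counts in any URE library, at least 58.7-fold and 75.4-fold lower than WT in LSKs and at least 204.0-fold and 125.0-fold lower in GMPs, and that at -13.7 kb had at most 6. The regions at -12.7 and -12.3 kb had 2.57 to 3.83 and 0.833 to 3.61 CPM in URE libraries. In LSKs these regions changed in opposite directions. At -12.7 kb the mean rose from 1.48 CPM in WT-LSK to 3.45 in URE-LSK, which was called (1.2 on the log2 scale, SE 0.31, edgeR adjusted p = 0.00374). In GMPs it was 2.78 in WT and 2.97 in URE, with no call. At -12.3 kb URE was 4.85-fold lower in LSKs and 4.42-fold lower in GMPs, called in both. With 106 to 205 and 35 to 208 counts per URE library, at least part of the sequence of the -12.7 and -12.3 kb regions was present in URE mice. They held most of the URE sum of the window, with means of 3.45 and 1.02 CPM in LSKs and 2.97 and 2.62 in GMPs. The exact borders of the deletion are not given in the sources used here.

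The promoter region (chr2:91096454-91097341) covers the first exon of Spi1-203 and the 3' part of the first exon of Spi1-201, with the start codon. The annotated start of Spi1-201 lies upstream of the region. Replicates 1, 2 and 3 of WT-LSK held 36.6, 34.1 and 34.8 CPM there, and those of URE-LSK 2.83, 8.46 and 5.64. WT-GMP held 33.8, 37.1 and 36.1 CPM, and URE-GMP 24.2, 29.1 and 21.2. The URE libraries lay below the WT libraries without overlap in both cell types, but the 3 URE-LSK libraries stood far below all others. URE-LSK was 6.27-fold lower than WT-LSK (log2 fold change -2.65, SE 0.25, edgeR adjusted p = 2.2e-07). URE-GMP was 1.43-fold lower than WT-GMP, which was not called (log2 fold change -0.52, SE 0.22, edgeR adjusted p = 0.0555, approximate 95% interval -0.96 to -0.08). The 2 effects differed by 2.13 on the log2 scale in the test of the interaction between genotype and cell type (GMP minus LSK, SE 0.33, edgeR adjusted p = 0.00051). Apart from the 30-base stretches shown above, the promoter region held a second CEBP match, a second PU.1 core and 2 further GC boxes.

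The 4 regions between the deleted window and the promoter lie in an intron of the long transcripts Spi1-202 and Spi1-204. The annotated starts of these transcripts lie inside the deleted window, in the -14.6 kb region, which held 0 to 2 counts in the URE libraries. The pair nearest the deleted window, at -10.4 and -9.3 kb, lost accessibility in both cell types. The -10.4 kb region (chr2:91086368-91086698) had WT-LSK values of 2.89, 3.47 and 2.84 CPM and URE-LSK values of 0.0952, 0.167 and 0.214, the latter from 4, 6 and 10 counts. The WT-GMP values were 8.79, 10.7 and 9.5 CPM and the URE-GMP values 0.603, 1.8 and 0.363. No URE library reached a WT library of its cell type. The region was 18.7-fold lower in URE-LSK (log2 fold change -4.23, SE 0.49, edgeR adjusted p = 2.4e-06) and 10.1-fold lower in URE-GMP (-3.34, SE 0.38, adjusted p = 2.51e-06). URE-GMP replicate 2 stood above the other URE-GMP libraries, and without it the log2 fold change in GMPs was -4.3. The gain from LSK to GMP was 3.17-fold in WT (log2 fold change 1.66, SE 0.35) and 5.87-fold in URE (2.55, SE 0.52; 1.59 without URE-GMP replicate 2), and the 2 gains differed by 0.89 on the log2 scale (SE 0.64, edgeR adjusted p = 0.384), and by -0.077 without that library.

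The -9.3 kb region (chr2:91087482-91087805) had 4.3, 4.16 and 3.82 CPM in the WT-LSK libraries against 0.595, 0.642 and 0.854 in the URE-LSK libraries. For GMPs the values were 2.97, 2.62 and 3.34 against 1.25, 1.35 and 1.28. All URE libraries were below all WT libraries, with the wider gap in LSKs. It was 5.82-fold lower in LSKs (log2 fold change -2.54, SE 0.22, edgeR adjusted p = 1.1e-07) and 2.29-fold lower in GMPs (-1.20, SE 0.21, adjusted p = 0.000117). The interaction was 1.34 (SE 0.30, edgeR adjusted p = 0.00626), a smaller loss in GMPs. Tested against a log2 fold change of 1 (glmTreat), neither the interaction (adjusted p = 0.41) nor the GMP loss (adjusted p = 0.188) was called, and with loess offsets the GMP value was -0.93, under the fold threshold.

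The pair nearer the promoter, at -8.9 and -7.6 kb, was nearly closed in LSKs, with no call between genotypes there, and was called higher in URE in GMPs. The -7.6 kb region (chr2:91089030-91089732), whose PU.1, CEBP and GATA matches are printed above, was low in LSKs, at 0.525, 0.653 and 0.965 CPM for WT and 0.69, 1.03 and 1.32 for URE (log2 fold change 0.48, SE 0.43, edgeR adjusted p = 0.356). WT-GMP libraries had 11.9, 8.71 and 3.53 CPM, and URE-GMP libraries 19.1, 19.0 and 12.7. GMP libraries were far above LSK libraries in both genotypes, and the lowest URE-GMP library lay just above the highest WT-GMP library. It rose 10.9-fold from LSK to GMP in WT (log2 fold change 3.44, SE 0.40, edgeR adjusted p = 4.12e-06) and 16.6-fold in URE (4.05, SE 0.39, adjusted p = 2.03e-07), the largest step among the 16 regions in either genotype. URE-GMP was 2.13-fold above WT-GMP (1.09, SE 0.33, adjusted p = 0.00986). That call rested on single libraries: the log2 fold change was 0.74 without WT-GMP replicate 3, 0.99 without URE-GMP replicate 1 and 1.0 without URE-GMP replicate 2, with edgeR adjusted p = 0.0183, 0.0378 and 0.0284. It was 0.97 with library size only or with factors from promoter regions.

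The -8.9 kb region (chr2:91087901-91088104) averaged under 2 CPM and was added after its values were seen. It ranged from 0.204 to 0.53 CPM over the 6 LSK libraries, from 1.13 to 1.72 in WT-GMP and from 2.4 to 3.38 in URE-GMP. URE-GMP was 2.20-fold above WT-GMP (log2 fold change 1.14, SE 0.29, edgeR adjusted p = 0.00281). In LSKs the difference of 0.34 (SE 0.38, edgeR adjusted p = 0.454) was not called, with an approximate 95% interval of -0.40 to 1.09, but with loess offsets it was 1.44 and called, and the GMP value was 2.08. Summed over all 4 regions, WT-GMP and URE-GMP had the same level, 22.1 ± 4.08 and 22.2 ± 4.72 CPM (SD, n = 3; exact two-sided permutation p = 0.9), since the losses at -10.4 and -9.3 kb and the higher values at -8.9 and -7.6 kb were of like size. The same sum in LSKs was 8.18 ± 0.266 for WT and 2.28 ± 0.627 for URE.

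**Figure D2:**
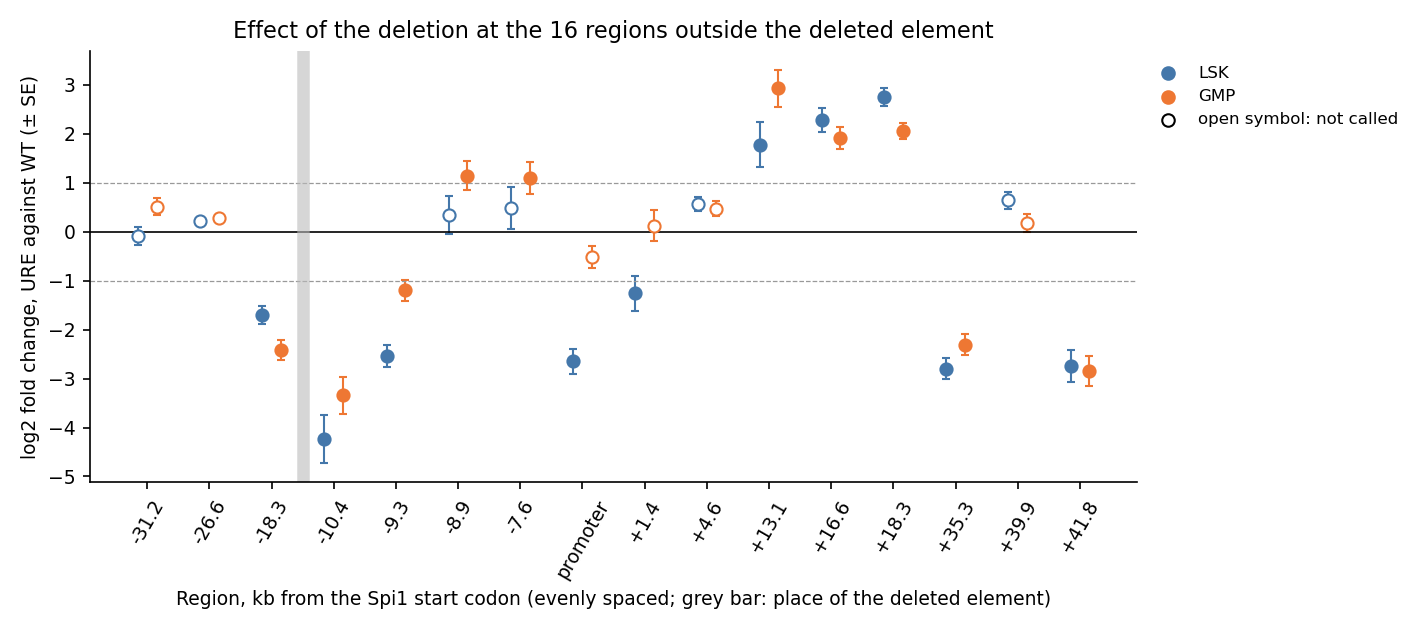
Log2 fold change of URE against WT with its SE from the edgeR fit, in LSKs (blue) and GMPs (orange), for the 16 regions outside the deleted window in their order along the chromosome, with filled symbols for called regions and dashed lines at a log2 fold change of 1 in either direction. The regions at -18.3, -10.4, -9.3, +35.3 and +41.8 kb are lower in both cell types and those at +13.1, +16.6 and +18.3 kb are higher in both, and the promoter stands at -2.65 in LSKs and -0.52 in GMPs.

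In the gene body, the first intron and the 3' end differed. The +1.4 kb region (chr2:91098237-91098520), in the first intron, had WT-LSK values of 3.28, 2.9 and 2.77 CPM and URE-LSK values of 0.5, 0.809 and 2.35. Those of WT-GMP were 8.58, 7.81 and 7.65 and those of URE-GMP 7.71, 8.99 and 9.42. URE-LSK replicate 3 came close to the WT-LSK libraries, and the GMP groups overlapped. URE-LSK was 2.4-fold lower (log2 fold change -1.26, SE 0.36, edgeR adjusted p = 0.00732), a value of -0.89 without URE-LSK replicate 1 and of -2.2 without URE-LSK replicate 3, while URE-GMP and WT-GMP differed by 0.12 (SE 0.32, adjusted p = 0.756, approximate 95% interval -0.50 to 0.75). The interaction of 1.38 (SE 0.48) had an edgeR adjusted p of 0.0603 and was not called. It was called without URE-LSK replicate 3 (2.32, adjusted p = 0.000226), with DESeq2 (1.41, adjusted p = 0.0348) and with the replicate block (1.45, adjusted p = 0.0368).

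The +4.6 kb region (chr2:91101423-91101724), in the second intron of Spi1-201, held a GATA match on each strand. LSK libraries had 8.27, 7.06 and 9.03 CPM for WT and 11.8, 12.5 and 11.8 for URE. GMP libraries had 6.07, 8.27 and 7.84 for WT and 10.7, 9.91 and 10.3 for URE. URE libraries lay above WT libraries in both cell types. The differences were under the fold threshold, at 1.48-fold in LSKs (log2 fold change 0.56, SE 0.15, edgeR adjusted p = 0.00451) and 1.39-fold in GMPs (0.47, SE 0.15, adjusted p = 0.0124). Its level changed little between cell types, by -0.13 in WT and -0.22 in URE, neither of them called.

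The 3 regions at the 3' end of the gene were more open without the enhancer, in LSKs as in GMPs. The +18.3 kb region (chr2:91115073-91115407) covers the start of the last exon, which encodes the end of PU.1 with its ETS DNA binding domain and the first part of the 3' UTR. WT-LSK libraries had 2.1, 1.35 and 1.57 CPM and URE-LSK libraries 11.2, 10.4 and 12.3. WT-GMP libraries had 3.85, 3.29 and 3.25 and URE-GMP libraries 14.4, 13.9 and 14.6. Every URE library, LSK or GMP, was above every WT library. It was 6.72-fold higher in LSKs (log2 fold change 2.75, SE 0.18, edgeR adjusted p = 9.88e-09) and 4.14-fold higher in GMPs (2.05, SE 0.17, adjusted p = 1.42e-07). The interaction of -0.70 (SE 0.24, edgeR adjusted p = 0.0588) was not called.

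The +16.6 kb region (chr2:91113284-91113745) covers most of a coding exon shared by Spi1-201 and Spi1-204 and the start of the next intron. Its WT-LSK values were 0.997, 1.63 and 1.15 CPM and its URE-LSK values 5.35, 6.11 and 6.49. Its WT-GMP values were 4.56, 4.93 and 2.58 and its URE-GMP values 15.2, 14.9 and 15.2. URE-LSK libraries lay above WT-LSK and also above WT-GMP libraries. The region was 4.85-fold higher in LSKs (log2 fold change 2.28, SE 0.25, edgeR adjusted p = 1.02e-06) and 3.76-fold higher in GMPs (1.91, SE 0.22, adjusted p = 3.06e-06). The intronic +13.1 kb region (chr2:91109832-91110190) averaged under 2 CPM and was added after its values were seen. WT-LSK libraries ranged from 0.122 to 0.367 CPM, URE-LSK from 0.641 to 1.03, WT-GMP from 0.277 to 0.986 and URE-GMP from 4.77 to 6.26, and its log2 fold changes were 1.77 (SE 0.46, edgeR adjusted p = 0.00375) in LSKs and 2.92 (SE 0.37, adjusted p = 6.3e-06) in GMPs, or 2.81 and 3.82 with loess offsets.

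Summed over the 5 gene body regions, LSKs had 14.3 ± 1.06 CPM in WT and 31.4 ± 2.01 in URE, and GMPs had 23.6 ± 1.87 in WT and 53.9 ± 0.715 in URE (SD, n = 3). The groups did not overlap, and the exact two-sided permutation p was 0.1 in both cell types, the smallest that 3 against 3 libraries can give (0.133 with Benjamini-Hochberg adjustment over 12 tests of 6 classes of regions in 2 cell types). The same p held for the promoter, for the deleted window, for the downstream neighbours and, in LSKs, for the regions between window and promoter. It was 0.7 and 0.3 for the upstream neighbours in LSKs and GMPs.

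**Figure D3:**
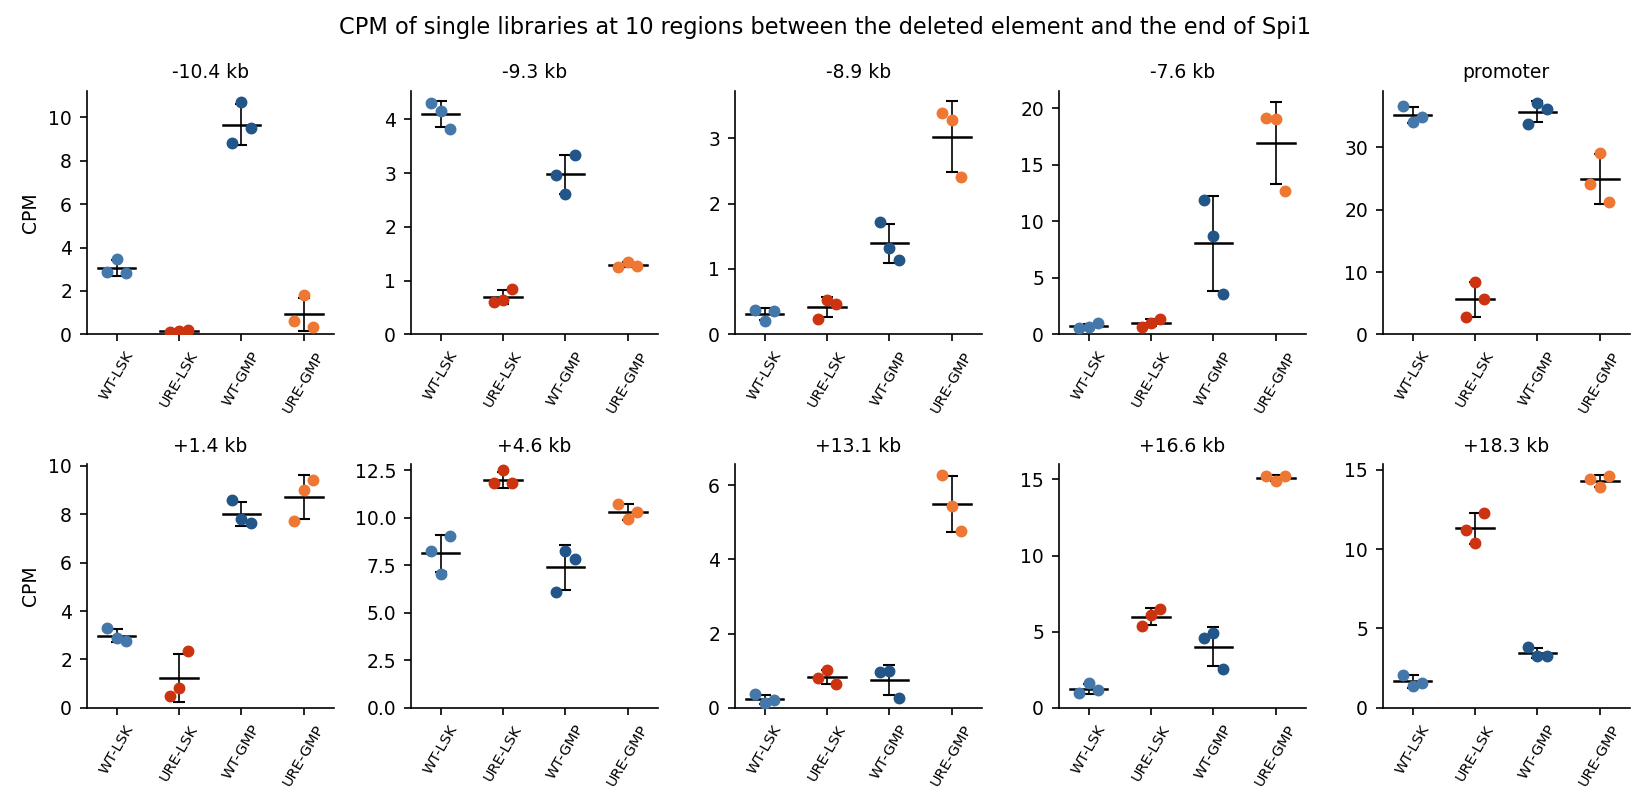
CPM of each library (points; bar and whiskers, mean and SD of 3) in the 4 groups for the 10 regions from -10.4 kb to +18.3 kb, each panel with its own axis from 0. The 3 URE-LSK libraries at the promoter sit at 2.83 to 8.46 CPM against 34.1 to 36.6 in WT-LSK, and at +18.3 kb every URE library lies above every WT library.

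Per length, the order of the regions changed with genotype. In WT-LSK the promoter had rank 2 among the 16 regions at 39.6 ± 1.43 CPM per kb of region (SD, n = 3), after the Slc39a13 promoter at 75.4 ± 4.03, and was followed by the +4.6 kb region at 26.9 ± 3.29, and the +18.3 kb region had 4.99 ± 1.16. In URE-LSK the promoter had 6.35 ± 3.17 and rank 7, within the spread of the -18.3 kb region (5.99 ± 1.30) and the +1.4 kb region (4.29 ± 3.49), while the +18.3 kb region had rank 3 at 33.8 ± 2.86. In WT-GMP the promoter again had rank 2 at 40.2 ± 1.91, ahead of the -10.4 kb region at 29.1 ± 2.86 and the +1.4 kb region at 28.2 ± 1.74, which did not differ beyond their spread. In URE-GMP the +18.3 kb region had rank 2 at 42.7 ± 1.15, followed by the regions at +4.6, +16.6 and +1.4 kb and the promoter at 34.2 ± 1.39, 32.7 ± 0.413, 30.7 ± 3.14 and 28.0 ± 4.48. Among the last 3 of these, those next to each other in this order lay within each other's spread.

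The step from LSK to GMP was compared in each genotype, since PU.1 rises as cells enter the myeloid lineage. In WT, 7 of 16 regions were higher in GMPs and 0 were lower, against 21% and 16.8% of all regions (0 lower also with DESeq2; at an unadjusted p under 0.05 in edgeR the -9.3 and +39.9 kb regions had lower values, and without the fold threshold the latter was called). In URE, 7 were higher and 2 lower, against 27.6% and 21.6% of all regions. At the promoter the step was 0.02 (SE 0.22, edgeR adjusted p = 0.944) in WT and 2.15 (SE 0.24, adjusted p = 1.05e-06) in URE, a 4.44-fold rise from the low level of URE-LSK. The direction of the WT value is not settled, as it was -0.046 with library size only. At +1.4 kb the step was 2.68-fold in WT (log2 fold change 1.42, SE 0.34, edgeR adjusted p = 0.00191) and 7.0-fold in URE (2.81, SE 0.36, adjusted p = 3.77e-06), with 3.74 for the URE step when URE-LSK replicate 3 was left out. At +16.6 kb it was 3.25-fold in WT (log2 fold change 1.70, SE 0.25, edgeR adjusted p = 3.09e-05) and 2.52-fold in URE (1.33, SE 0.22, adjusted p = 4.6e-05). At +18.3 kb it was 2.04-fold in WT (1.03, SE 0.18), a value between 0.83 and 1.14 when single libraries were left out and under 1 without WT-GMP replicate 1, 2 or 3 or WT-LSK replicate 2 or 3, and 1.26-fold in URE (0.33, SE 0.16). At +13.1 kb the WT step of 1.59 (SE 0.47, edgeR adjusted p = 0.00852) had an edgeR adjusted p of 0.0792 when WT-GMP replicate 2 was left out and 0.0512 when WT-LSK replicate 3 was. For the -9.3 kb region the step was -0.46 (SE 0.20) in WT and 0.88 (SE 0.22) in URE, neither of them called. The steps of WT and URE differed by the interaction test, the same comparison as that of the genotype effects, at the promoter and at -9.3 kb, with the more positive step in URE. Of all regions, 8.96% were called in this direction and 5.03% in the other, in which 0 of the 16 regions were called (0 also with DESeq2; at an unadjusted p under 0.05 the -18.3 and +18.3 kb regions had negative values).

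**Figure D4:**
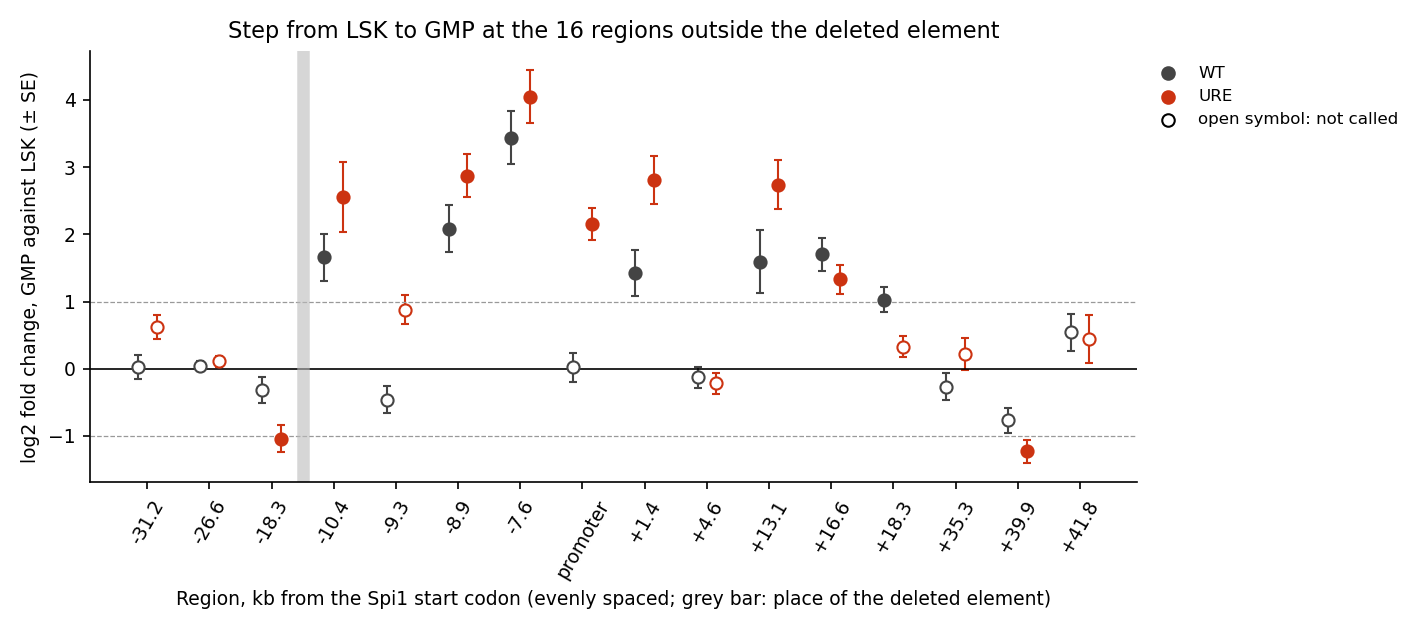
Log2 fold change of GMP against LSK with its SE from the edgeR fit, in WT (black) and URE (red), for the same 16 regions in chromosome order, with filled symbols for called regions. The promoter stands at 0.02 in WT and 2.15 in URE, and the -7.6 kb region has the largest step in both genotypes, 3.44 and 4.05.

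The neighbours showed that the losses were not spread evenly over the locus. At the Slc39a13 promoter (a zinc transporter gene, chr2:91069764-91070859) the 6 WT libraries ranged from 77.1 to 91.6 CPM and the 6 URE libraries from 90.6 to 111.0, with differences of 0.21 (SE 0.08, edgeR adjusted p = 0.0294) in LSKs and 0.28 (SE 0.08, adjusted p = 0.00481) in GMPs, under the fold threshold. The LSK value was -0.1 with loess offsets. A region over an exon of the same gene (-31.2 kb) ranged from 2.68 to 5.25 CPM over all libraries and was called in none of the comparisons. The intergenic -18.3 kb region (chr2:91078245-91079072), upstream of the deleted window, held a RUNX match, a GATA match and 3 GC boxes. In LSKs its WT values were 16.4, 15 and 16.7 CPM and its URE values 4.4, 6.2 and 4.27. In GMPs its WT values were 15.4, 10.8 and 12.6 and its URE values 2.28, 2.95 and 1.94. All URE libraries were below all WT libraries. It was 3.25-fold lower in LSKs (log2 fold change -1.70, SE 0.19, edgeR adjusted p = 2e-06) and 5.36-fold lower in GMPs (-2.42, SE 0.20, adjusted p = 1.58e-07). Its step from LSK to GMP in URE, -1.04 (SE 0.20, edgeR adjusted p = 0.000251), was under the fold threshold without URE-GMP replicate 3 (-0.91) and without URE-LSK replicate 2 (-0.85).

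Downstream, an intronic region of Mybpc3, which encodes a cardiac myosin binding protein, and an exon region of Madd, which encodes a Rab exchange factor, lost accessibility in LSKs and GMPs alike. The Mybpc3 region (+35.3 kb, chr2:91132019-91132406) ranged from 3.71 to 5.39 CPM over the WT libraries and from 0.63 to 1.01 over the URE libraries. It was 6.96-fold lower in LSKs (log2 fold change -2.80, SE 0.22, edgeR adjusted p = 5.2e-08) and 4.94-fold lower in GMPs (-2.31, SE 0.22, adjusted p = 4.32e-07). The Madd region (+41.8 kb, chr2:91138615-91138933) ranged from 2.55 to 5.35 CPM over the WT libraries and from 0.307 to 0.85 over the URE libraries. It was 6.71-fold lower in LSKs (log2 fold change -2.75, SE 0.33, edgeR adjusted p = 3.4e-06) and 7.20-fold lower in GMPs (-2.85, SE 0.31, adjusted p = 1.77e-06). Between them lies the +39.9 kb region, with 2 PU.1 motifs in the sequence above, which 11.8% of regions of like width held at least once. WT-LSK libraries had 5.14, 5.06 and 4.67 CPM and URE-LSK libraries 7.61, 7.76 and 7.77. WT-GMP libraries had 3.18, 2.33 and 3.25 and URE-GMP libraries 3.01, 3.17 and 3.68. It was 1.56-fold higher in URE-LSK, under the fold threshold (log2 fold change 0.64, SE 0.17, edgeR adjusted p = 0.00461), did not differ detectably in GMPs (0.18, approximate 95% interval -0.17 to 0.53), and was 2.35-fold lower in URE-GMP than in URE-LSK (-1.23, SE 0.17, adjusted p = 1.03e-05).

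Promoter regions of 15 of 16 genes that regulate Spi1 or act with or against PU.1 were compared with that of Spi1. In each genotype comparison 1 of the 15 was called lower and 0 higher, namely Gata1, the erythroid and mast cell factor that opposes PU.1. Of all regions, 23.9% and 24.1% were called lower in LSKs and GMPs and 13.6% and 15.6% higher. Only 22920 of the 121336 regions were promoter regions, and the share among these is not given here. DESeq2 was not run on this list. At an edgeR adjusted p under 0.05, 5 in LSKs and 6 in GMPs were higher, under the fold threshold. Lower at that level were 1 and 3, Gata1 among them in both. At an unadjusted p under 0.05, 6 and 6 were higher and 2 and 3 lower. LSKs had 3.08 ± 0.229 CPM at the Gata1 promoter in WT and 0.526 ± 0.194 in URE, and GMPs had 7.25 ± 0.508 and 1.24 ± 0.324 (SD, n = 3), a log2 fold change of -2.54 in both (edgeR adjusted p = 9.67e-07 and 5.11e-07). Cebpb, a C/EBP factor of emergency granulopoiesis, stood at 57.7 ± 5.95 and 80.7 ± 7.25 CPM in WT-LSK and URE-LSK and at 82.9 ± 20.6 and 130.7 ± 7.66 in WT-GMP and URE-GMP. Irf8, a monocyte factor and PU.1 partner, stood at 27.9 ± 3.87 CPM in WT-GMP and 17.9 ± 1.58 in URE-GMP (log2 fold change -0.64, SE 0.12, edgeR adjusted p = 0.000279). Runx1 stood at 42.9 ± 4.0 and 54.0 ± 3.95 CPM in LSKs and at 72.8 ± 12.4 and 73.6 ± 6.36 in GMPs of WT and URE mice. The median log2 fold change of the 15 was 0.11 in LSKs and 0.18 in GMPs.

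Among the promoter regions of 12785 protein-coding genes with at least 5 CPM, the 5 whose log2 CPM followed the Spi1 promoter most closely over the 12 libraries were those of Fcgr2b (Pearson r = 0.991), Alox5ap (0.985), Haao (0.985), Fgd2 (0.984) and Ccl24 (0.983). The libraries fall into 4 groups, so these values mainly describe the group means. Fcgr2b encodes an inhibitory Fc receptor of myeloid and B cells. LSKs had 7.34 ± 0.0531 CPM at its promoter in WT and 0.449 ± 0.344 in URE, and GMPs had 9.71 ± 1.29 and 6.0 ± 0.829. Alox5ap, needed for leukotriene synthesis, had 32.1 ± 2.64 and 9.28 ± 1.73 CPM in LSKs and 34.9 ± 1.90 and 27.3 ± 2.91 in GMPs. Within the locus, the regions closest to the promoter in this measure were those at -10.4 kb (0.87) and -9.3 kb (0.86), and the +39.9 and +4.6 kb regions had the lowest values outside the deleted window (-0.77 and -0.75).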

How the data were processed

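ATAC-seq had been performed with the OmniATAC protocol on sorted LSKs and GMPs of WT and URE mice, 3 libraries per group. The table holds raw counts as deposited by the authors, whole numbers that are not normalized. By the study's methods and the submitters' processing notes, Bowtie2 placed the reads on GRCm38, duplicated reads were dropped, Genrich called peaks in each group, which were merged, and featureCounts counted the reads. Fragments or read ends may have been counted, which is not given in the sources used here. All columns were used.

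Regions were placed with GENCODE M21, with starts given counted from 1. Promoter regions were those at most 500 bp from a start site, and the deleted window spanned 12 to 17 kb before the start codon. Counts were fitted with edgeR 4.0.16 (R 4.3.3) with TMM scaling, a quasi-likelihood test and 1 coefficient per group over 12 libraries. filterByExpr removed 0 regions, and the biological coefficient of variation was 0.185. CPM were taken from edgeR after TMM. Intervals of log2 fold changes are 1.96 SE to each side. Sums of regions were compared by exact two-sided permutation tests (scipy 1.17.1). The fit was tested on simulated data. The members and gene lists were chosen with earlier results of these data known. Regions from the deleted window to the gene end were described per library when their mean was at least 2 CPM and neighbours when called. Alternatives were DESeq2 1.42.0, other scalings, filters and thresholds, only the groups compared, the replicate block, and leaving out each library. Marker lists of 2 further cell types are not reported here.

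Deviations of same-numbered GMP and LSK libraries of WT mice correlated at 0.154, 0.141 and 0.158 for replicates 1, 2 and 3, all over 0.1, which was taken as pairing. The labels do not say that they share a mouse. For the other comparisons at least 1 pair was under 0.1. Same-numbered WT-GMP and URE-GMP libraries, which cannot share a mouse, correlated at 0.089, 0.181 and 0.313. The measure therefore cannot show whether 2 libraries share a mouse.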

Additional observations from a re-analysis of the deposited data

Results flagged for a closer look

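The genotype effect differed between GMPs and LSKs by the interaction test at 2 of the 16 regions outside the deleted window (12.5%), both with a positive value. Over all regions 8.96% were called with a positive and 5.03% with a negative value, so the count lies near the share over all regions. At the promoter the effect in GMPs minus that in LSKs was 2.13 on the log2 scale (edgeR adjusted p = 0.00051), from a 6.27-fold lower level in URE-LSK and a 1.43-fold lower level in URE-GMP. At the -9.3 kb region it was 1.34 (edgeR adjusted p = 0.00626), from a 5.82-fold and a 2.29-fold lower level. The -9.3 kb difference was not called when tested against a log2 fold change of 1 (glmTreat, adjusted p = 0.41).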

How the results depend on the processing

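Over the 16 regions and 5 comparisons, 975 of 1014 values under alternatives other than leaving out a library kept their direction and their side of the threshold, 20 lost and 13 gained the call, and 6 reversed. Leaving out single libraries gave 921 of 960 unchanged verdicts, 13 lost calls, 2 gained calls and 24 reversals. Reversed values with a changed scaling were, for GMP against LSK in WT, -0.049 at -31.2 kb, -0.028 at -26.6 kb and -0.046 at the promoter with library size only and -0.11 at -26.6 kb with loess offsets. In LSKs URE against WT was -0.1 at -26.6 kb with loess offsets, and in GMPs it was -0.003 at +1.4 kb with promoter TMM factors. Without single libraries, the WT step ranged from -0.17 to 0.081 at -31.2 kb, from -0.13 to 0.04 at -26.6 kb and from -0.11 to 0.021 at the promoter, and the interaction from -0.077 to 1.25 at -10.4 kb, from -0.18 to 0.056 at +4.6 kb and from -0.4 to 0.24 at +41.8 kb.

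Counts of called regions changed under several alternatives. The WT step had 7 higher regions, but 5 with a mean CPM of at least 2 and 5 to 7 without single libraries. The URE step had 7, but 5 with that minimum and 9 without the fold threshold. In LSKs 3 were higher, but 2 with that minimum or glmTreat and 4 with loess offsets. In GMPs 5 were higher, but 4 with library size only or promoter TMM factors and 4 to 5 without single libraries. Without the fold threshold 6 regions were higher in LSKs and 8 in GMPs, and 1 was lower in the WT step. With a mean CPM of at least 2, or with glmTreat, 3 were higher in GMPs. With glmTreat the interaction called 1 region, without that at -9.3 kb, and the WT step 4. The URE step called 1 lower region with RLE, loess offsets, GC content offsets or DESeq2 and 0 with glmTreat, and 1 to 2 without single libraries. Of 12 class sums, URE minus WT without TMM was -7.21 CPM (1.55 with TMM) for the upstream neighbours in LSKs, -54.9 for the deleted window in LSKs, -1.65 (0.0997 with TMM) between window and promoter in GMPs, 26.5 for the gene body in GMPs and -5.35 for the downstream neighbours in LSKs. With only regions of at least 2 CPM it was -1.53 between window and promoter and 25.5 in the gene body in GMPs. Without single libraries it ranged from -0.208 to 4.32 for the upstream neighbours in LSKs and from -2.18 to 2.8 between window and promoter in GMPs. The causes were not tested.

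The replicate block joined the same-numbered libraries of all 4 groups, although WT and URE libraries cannot share a mouse, so it is not a paired design. With this block, 7 regions were lower and 3 higher in LSKs, and 5 and 5 in GMPs. In each step 7 were higher, with 2 lower in the URE step. The interaction had 3 positive regions instead of 2, the added one at +1.4 kb. The block changed no other count. Regions with few counts limit precision: at 4 to 10 counts per URE-LSK library the fold at -10.4 kb is loosely set.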
